A study of Mus musculus with 16 samples.

Results

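A set of 9 genes that mark the resident macrophage of the liver, the Kupffer cell, was followed through all libraries of the series. The 9 genes were Clec4f, Timd4, Cd5l, Marco, Cd163, Adgre1, Csf1r, Nr1h3 and Spic, taken by symbol from the 47729 genes of each count table. The study asked what loss of the transcription factor Zeb2 from liver endothelium does to endothelial cells (ECs) and to the cells around them. It sequenced mRNA of Kupffer cells (KCs), ECs, hepatic stellate cells (HSCs) and hepatocytes in 16 libraries, 2 for each cell type and genotype label. Libraries labelled KO came from mice with a floxed Zeb2 exon 7 and tamoxifen-inducible Cre under the endothelial Cdh5 promoter. Libraries labelled WT came from littermates without Cre. By the study's methods, the mice were males aged 8 weeks on a background with an eGFP reporter of recombination. All of them, controls included, received 2 mg tamoxifen per day for 5 days, and RNA was taken from unchallenged livers 2 weeks later.

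Kupffer cells sit inside the sinusoids, held to the endothelium and reaching towards stellate cells and hepatocytes, and clear particles, bacteria and aged red cells from portal blood. Their identity is known to depend on signals of these neighbours: colony-stimulating factor through Csf1r, Notch ligands, and ligands of the bone morphogenetic protein family. These signals act on a core of transcription factors that includes Nr1h3 (liver X receptor alpha) and Spic, and on the genes that such factors drive, among them Clec4f, Timd4 and Cd5l.

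By the methods, KCs were sorted as F4/80+ cells without the UV signal of stellate cells, ECs by the pan-endothelial antigen Meca32 and HSCs by their UV signal, and hepatocytes were separated by centrifugation. F4/80 is the protein of Adgre1, so the level of this gene in KC libraries was partly set by the gate. Between 12872706 and 15690506 reads per library fell on genes, and 3 reads, taken as the smallest level such a depth can show, equal 0.191 to 0.233 CPM (read counts scaled to the gene reads of their library), a floor that covers counting error only. Zeb2, the targeted gene, had 107 and 106 CPM in EC libraries WT 34 and WT 38. It had 199 and 130 CPM in EC libraries KO 6 and KO 46. The log2 fold change of 0.62 did not pass (adjusted p = 0.303 by edgeR's quasi-likelihood test). Whole-gene counts do not separate exon 7, so they cannot show whether the floxed exon was lost. The paper reports that Zeb2 was efficiently deleted from endothelium, also at the mRNA level. The groups are called by their labels, which whole-gene counts cannot check. The labels do not say that the libraries of a group came from separate mice, so p-values measure the spread between libraries, which may be technical. They also do not say which libraries of different cell types share a mouse, and the tests treat all libraries as independent. In bulk RNA, fewer cells of a type and less RNA per cell cannot be told apart.

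The 9 genes took 3.04% to 4.01% of all gene reads in the 4 KC libraries and 0.0212% to 0.177% in the 12 others. The surface lectin Clec4f, restricted to Kupffer cells among mouse macrophages and located on GRCm38 at chr6:83644542-83656187, took the most reads of them. It had 12550 and 12930 CPM in KC libraries WT 31 and WT 39 and 11680 and 11240 CPM in KO 27 and KO 43. Cd5l (chr3:87357881-87371073), a secreted scavenger protein that protects macrophages from apoptosis, had 11100 and 9717 CPM in the WT-labelled libraries and 7640 and 10770 CPM in the KO-labelled ones. The KO-labelled libraries lay below the WT-labelled ones for Clec4f, and the labels overlapped for Cd5l.

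Csf1r (chromosome 18), the receptor on which the survival of macrophages depends, had 3508 and 6130 CPM in WT 31 and WT 39, and 6221 and 5241 CPM in KO 27 and KO 43. Adgre1 (chr17:57358691-57483527), the F4/80 antigen itself, had 939 and 1929 CPM, then 1682 and 1908 CPM in the same order. Library WT 31 was the lowest for both. The haemoglobin scavenger receptor Cd163 (chr6:124304656-124330527) had 264 CPM in WT 31 against 965 CPM in WT 39, and 679 and 783 CPM in the KO-labelled libraries, with WT 31 again the lowest.

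Timd4 (chr11:46810800-46844332), a phosphatidylserine receptor for dying cells, turned the other way, with 1136 CPM in WT 31, 764 CPM in WT 39 and 656 and 806 CPM in KO 27 and KO 43. Nr1h3 (chr2:91184061-91202834) was also highest in WT 31, at 1135 CPM against 760, 768 and 674 CPM in WT 39, KO 27 and KO 43. Spic (chr10:88674772-88685015), an Ets-family factor of macrophages that handle haem iron, was even across the 4 libraries, with 315 and 310 CPM under the WT label and 353 and 252 CPM under the KO label. The bacterial scavenger receptor Marco (chr1:120474538-120505024) was not even. It reached 9163 CPM in WT 31 and only 551 CPM in WT 39, 670 CPM in KO 27 and 368 CPM in KO 43.

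The 250 bases before the start of transcription were read for the genes that the RefSeq promoter table lists, which were 7 of the 9 with 8 starts. They are shown for Cd5l, whose level was steady over the KC libraries, and Marco, whose level was not, both from GRCm38.p6 and with no exon of the GENCODE annotation inside the window. Cd5l lies on the plus strand (chr3:87357631-87357880) and Marco on the minus strand (chr1:120505025-120505274).
Cd5l: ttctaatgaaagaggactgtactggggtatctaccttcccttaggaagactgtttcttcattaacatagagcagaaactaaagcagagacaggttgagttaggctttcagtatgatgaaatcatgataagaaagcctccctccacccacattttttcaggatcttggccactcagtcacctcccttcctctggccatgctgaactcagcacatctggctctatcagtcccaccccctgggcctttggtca
Marco: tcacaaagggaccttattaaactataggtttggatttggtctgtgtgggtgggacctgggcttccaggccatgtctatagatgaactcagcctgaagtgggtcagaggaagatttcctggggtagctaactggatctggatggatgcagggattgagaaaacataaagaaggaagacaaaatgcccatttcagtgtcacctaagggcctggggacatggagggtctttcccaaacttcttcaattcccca

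Both windows were searched on both strands for GAGGAAGT, a form of the motif of the macrophage factor PU.1, and for CACCTG, the E-box that Zeb proteins bind, and neither holds either one, so no letters are in capitals. Among all 8 windows GAGGAAGT was in 0, beside 2.44% of 32851 promoters, and CACCTG was in 1, beside 17.2%. That window belongs to Nr1h3, where the motif starts 187 bases before the transcription start (position -187) on the minus strand. It is shown in capitals within the 30 bases at chr2:91195286-91195315.
Nr1h3: tggaaggcccagCACCTGcctgtcttcacc
A match is a description of letters and not a binding site, and the windows without one say nothing about either factor.

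Levels of different genes were compared per kb of merged exons. On that scale, over the 4 KC libraries, Clec4f had 4898 ± 314 CPM per kb (SD, n = 4) and Cd5l 4817 ± 767, which did not differ beyond their spread. Marco followed at 1396 ± 2243, a mean that rests on 1 library and overlaps its neighbours on both sides. Csf1r had 914 ± 218 and Adgre1 499 ± 143 CPM per kb, ranges that did not overlap, from 608 to 1077 and from 290 to 596. Timd4 (387 ± 95.1) and Nr1h3 (332 ± 81.6) lay within the spread of each other, ahead of Cd163 (123 ± 54.4) and Spic (80.1 ± 10.8), whose ranges overlapped.

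**Figure D1:**
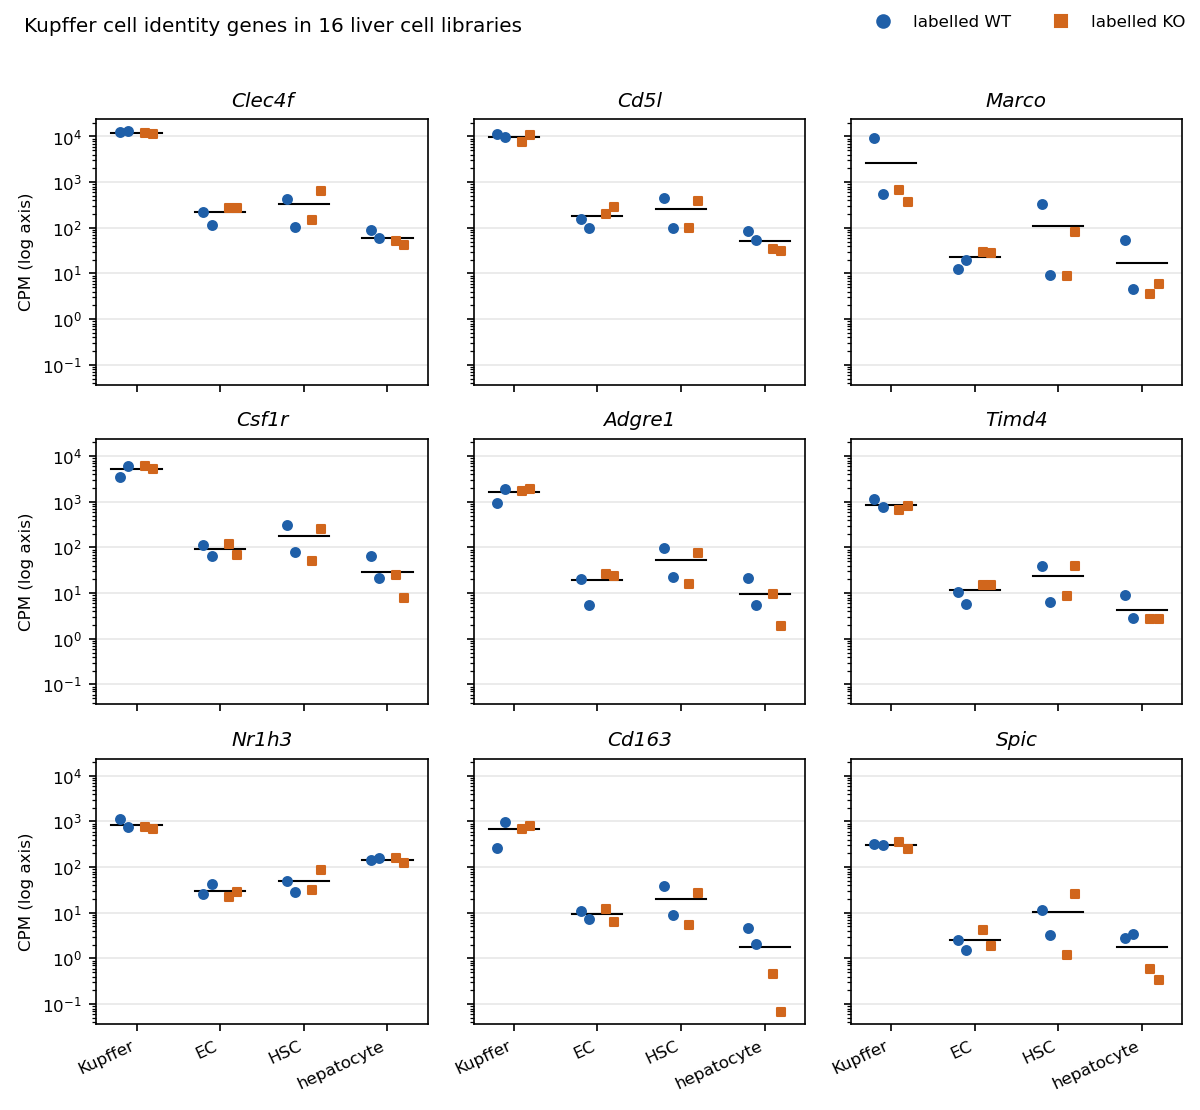
Level of each of the 9 genes in CPM (vertical log axis) by cell type, 1 point per library, blue circles for the WT label and orange squares for the KO label, with a bar at the mean of the 4 libraries of a cell type. The 4 KC points lie above those of every other cell type for all 9 genes, Nr1h3 comes closest in hepatocytes (121 to 158 CPM), and 1 KC point of Marco (9163 CPM) stands apart.

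All 9 genes were higher in KC than in the other cell types, compared as the mean of both labels in edgeR's quasi-likelihood test over the 16 libraries with Benjamini-Hochberg adjustment over all 17214 genes tested. Against ECs the log2 fold changes ran from 5.13 (Nr1h3, adjusted p = 2.63e-06) to 7.27 (Spic, adjusted p = 4.67e-05), and 9 of 9 passed where 14.5% of all genes did. Against HSCs they ran from 4.17 (Nr1h3, adjusted p = 6.41e-06) to 5.29 (Cd5l, adjusted p = 2.32e-05), 9 of 9 against a background of 20.6%. Against hepatocytes they ran from 1.48 (Nr1h3, adjusted p = 0.00299) to 8.39 (Cd163, adjusted p = 3.96e-06), 9 of 9 against a background of 29.3%. The value of Adgre1 in these comparisons is a description, as the sort used its protein, and all 9 were chosen as known KC genes. The median log2 fold change of the 9 genes was 6.48 against ECs, 4.97 against HSCs and 6.64 against hepatocytes, beside -0.13, -0.09 and 0.24 for all genes.

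Marco passed least firmly against HSCs, with a log2 fold change of 4.29 (SE 1.21, adjusted p = 0.0134). It was the one gene lost there when KC library WT 31 was left out (2.58, adjusted p = 0.083) or when only WT-labelled libraries were used (5.00, adjusted p = 0.111). The scaling matters most for hepatocytes. With library totals alone the median of all genes moved from 0.24 to 1.24, the log2 fold change of Nr1h3 became 2.52, and the calls turned from 5043 higher and 4534 lower to 8340 and 2534. Against ECs that scaling moved the median from -0.13 to -0.45 and the calls from 2498 higher and 3015 lower to 1864 and 4361. All 9 genes stayed higher in KC and past the threshold under it in all 3 comparisons.

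Outside KC, the libraries held small but graded amounts of these transcripts. For Clec4f, EC libraries had 0.966% to 2.22% of the mean KC level, HSC libraries 0.853% to 5.4% and hepatocyte libraries 0.344% to 0.732%. HSC libraries KO 20 and WT 32 were the highest of the 12, at 654 and 431 CPM of Clec4f, while HSC KO 8 and WT 40 had 147 and 103 CPM. Cd5l was likewise highest in these 2 libraries, with 385 CPM in KO 20 and 456 CPM in WT 32 against 101 CPM in each of the other HSC libraries. Nr1h3 was the exception among the 9. Hepatocytes, which use the same receptor in lipid metabolism, held 14.5% to 18.9% of its KC level, with 143 and 155 CPM in WT 29 and WT 33 and 158 and 121 CPM in KO 25 and KO 41. None of the 8 others went above 2.01% there. That highest value belonged to Marco in WT 29, at 54 CPM, and the mean KC level of Marco rests on library WT 31 (9163 CPM). The other KC libraries had only 368 to 670 CPM of Marco, and HSC WT 32 had 333 CPM.

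Setting each gene against Clec4f in the same library shows which transcripts travelled together. For every 100 reads on Clec4f, Cd5l had 65.4 to 95.8 reads in KC libraries, 70.1 to 104 in EC, 58.9 to 106 in HSC and 66.7 to 98.3 in hepatocyte libraries. The classical complement gene C1qb, the gene most like Clec4f over the 16 libraries (Pearson r = 0.9978), kept a similar ratio, with 53.3 to 67.6 reads in KC and 50.5 to 79.6 in the other libraries. C1qb was picked by that likeness in these data, so its steady ratio follows from the choice. Nr1h3 had 5.88 to 9.05 reads per 100 in KC and 162 to 303 in hepatocytes, ranges that did not overlap.

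Marco again stood apart. It had 73 reads per 100 Clec4f reads in KC WT 31, 77.4 in HSC WT 32 and 61 in hepatocyte WT 29, and 3.28 to 16.8 in the 13 other libraries (median 7.76). In HSC WT 32 this was 5203 Marco reads beside 6723 Clec4f reads, and in hepatocyte WT 29 it was 847 beside 1389. The chemokine gene Cxcl13, the gene whose level was most like that of Marco (r = 0.9759 over 16 libraries), had 9.46, 9 and 10.6 reads per 100 in these 3 libraries. It had 8.97 in EC WT 38 and 0.975 to 3.47 in the 12 that remain. Cxcl13 was picked by its likeness to Marco in these data, so its ratios are partly set by the choice. Timd4 had its 3 highest ratios in KC WT 31, HSC WT 32 and hepatocyte WT 29, at 9.05, 9.33 and 10.1 against 4.75 to 7.17 elsewhere. The ratio of Csf1r did not follow, as KC WT 31 was the lowest of the KC libraries while HSC WT 32 (73) and hepatocyte WT 29 (71.9) were high, and HSC WT 40, which is not among the 3, was higher still (75.4). The 3 libraries carry the WT label and nearby numbers, but the labels do not say whether they share a liver, and the part of any such sharing in the result was not tested.

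**Figure D2:**
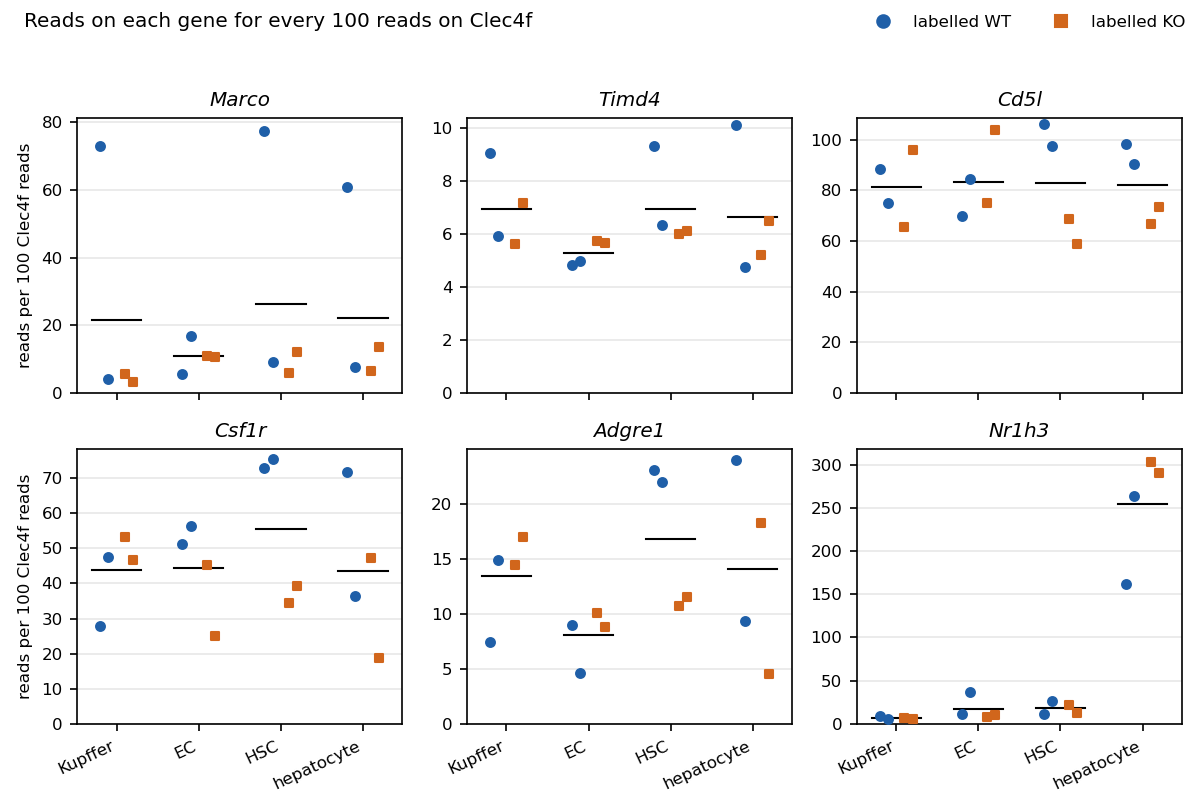
Reads on 6 of the genes for every 100 reads on Clec4f in the same library (vertical axis from 0) by cell type, with blue circles for the WT label, orange squares for the KO label and a bar at the mean of 4 libraries. Marco is high in 1 WT-labelled library each of KC (73), HSC (77.4) and hepatocytes (61), Cd5l stays between 58.9 and 106 throughout, and Nr1h3 is high in hepatocytes alone (162 to 303).

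Whether the label of the mouse went with a change in KC identity was tested within KC libraries, KO minus WT label. None of the 9 genes passed, beside 0.0% of the 13867 genes tested. edgeR's quasi-likelihood test left 1 of the 9 (Marco) and 706 of all genes under an unadjusted p of 0.05, and DESeq2 also called 0 of the 9 while calling 78 of all genes. The median log2 fold change of the 9 genes was -0.21, with 3 above and 6 below 0, beside a median of -0.02 for all genes. The CPM of the labels did not overlap for 1 of the 9 (Clec4f), beside 36.6% of all genes.

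For Clec4f, the KO-labelled libraries had 11460 ± 313 CPM (SD, n = 2) and the WT-labelled ones 12740 ± 266, a log2 fold change of -0.21 (SE 0.27, adjusted p = 0.966 by edgeR's quasi-likelihood test). For Cd5l the log2 fold change was -0.23 (SE 0.33), for Timd4 -0.45 (SE 0.36), and for Nr1h3 -0.47 (SE 0.35). Csf1r, Adgre1 and Cd163 were on the other side of 0, at 0.22, 0.31 and 0.26 with SEs of 0.32, 0.37 and 0.54. Spic stood at -0.11 (SE 0.30). Their adjusted p-values in edgeR lay between 0.933 and 0.981.

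Marco had the largest estimate of the 9, a log2 fold change of -3.38 (SE 1.22, adjusted p = 0.933 by edgeR's quasi-likelihood test). Its groups overlapped, with 551 and 9163 CPM under the WT label and 368 and 670 CPM under the KO label. Without library WT 31 the estimate was -0.04, and without WT 39 it was -4.31. The difference between labels thus rests on 1 library. When genes with low counts were not filtered out before the fit, Marco was called (-3.38, adjusted p = 6.01e-11), as it was under no other setting tried.

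Library WT 31 also departed from the other 3 KC libraries in genes that are not among the 9. Lyz2 (lysozyme) had 17500 CPM there against 7038 to 8141 CPM, and Cxcl13, picked by its likeness to Marco, 1188 against 150 to 193 CPM. The iron exporter gene Slc40a1 had 1562 CPM against 4096 to 6455 CPM, and the engulfment receptor gene Axl 458 against 1574 to 1976 CPM. C1qb was also highest there, at 8490 CPM beside 6610 to 7522 CPM. So were C1qa (6338 against 3760 to 4282 CPM), Cfp (4770 against 3168 to 3318 CPM) and, of the 9, Cd5l (11100 against 7640 to 10770 CPM). Marco, Timd4, Nr1h3, Cd5l, Lyz2, Cxcl13, C1qa, C1qb and Cfp were thus highest in the library in which Adgre1, Csf1r, Cd163, Slc40a1 and Axl were lowest. The part of this library's makeup in any difference between labels was not tested beyond leaving it out.

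**Figure D3:**
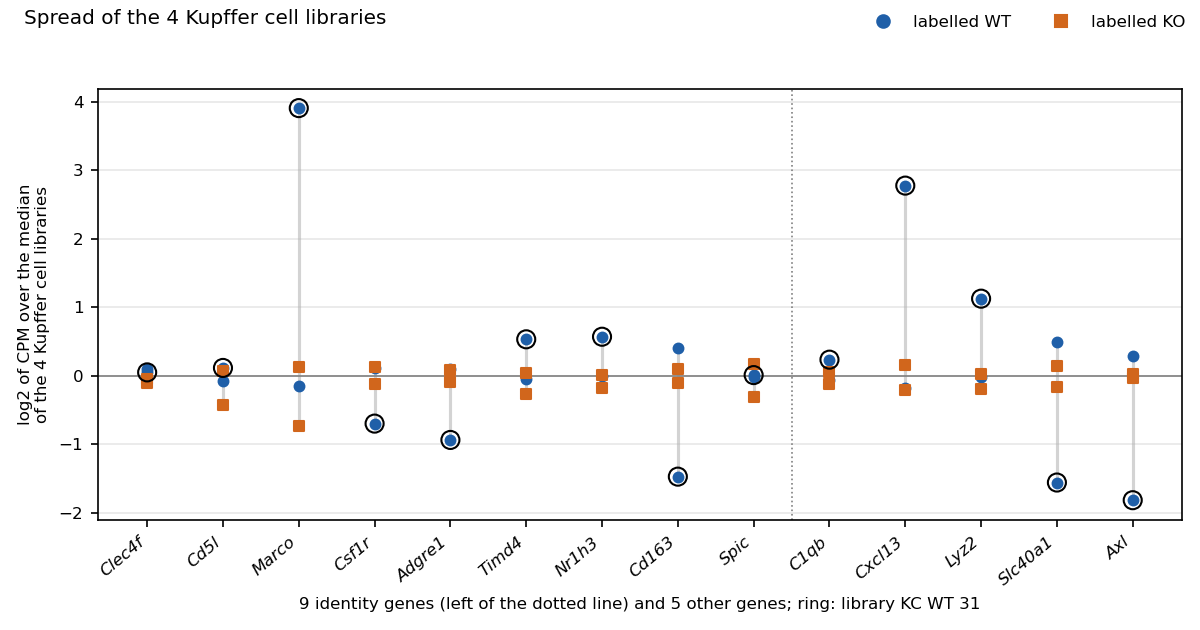
Log2 of the CPM of each KC library over the median of the 4 KC libraries (vertical axis) for the 9 genes and 5 others, with blue circles for the WT label, orange squares for the KO label and a black ring around library WT 31. The ringed point is the highest for Marco, Timd4, Nr1h3, Cd5l, C1qb, Cxcl13 and Lyz2 and the lowest for Csf1r, Adgre1, Cd163, Slc40a1 and Axl. For Clec4f and Spic the 4 points lie close together.

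In EC libraries 7 of the 9 estimates were above 0, but none of the 9 passed edgeR's quasi-likelihood test, beside 2.08% of 14631 genes (2192 of them at an unadjusted p under 0.05), and DESeq2 called 0 of the 9 and 992 genes. The median log2 fold change of the 9 was 0.65, beside -0.01 for all genes. Clec4f had 222 and 117 CPM in WT 34 and WT 38 and 267 and 268 CPM in KO 6 and KO 46, a log2 fold change of 0.65 (SE 0.34, adjusted p = 0.433 by edgeR's quasi-likelihood test). The largest estimates were 0.98 for Adgre1, 0.92 for Cd5l, 0.88 for Timd4 and 0.84 for Marco, of which Cd5l and Marco had an unadjusted p under 0.05 (adjusted p = 0.265 and 0.293 in edgeR). Labels did not overlap for 5 of the 9 (Adgre1, Clec4f, Cd5l, Marco and Timd4), beside 48.2% of all genes. Without library WT 34, 2 of the 9 were called, Adgre1 (2.25, adjusted p = 0.029 in edgeR) and Clec4f (1.24, adjusted p = 0.0495), so this comparison depends on 1 library. Hepatocyte transcripts, summed over 12 marker genes, went the other way in the same libraries, with 12900 and 26500 CPM under the WT label and 3066 and 2178 CPM under the KO label. Below 0 as well were 10 of 10 stellate, 8 of 8 lymphocyte, 7 of 7 neutrophil and 6 of 8 monocyte genes tested. So were 6 of 8 other macrophage and dendritic cell, 4 of 6 erythroid and platelet and 3 of 5 cholangiocyte genes. Above 0 were 14 of 20 further KC identity genes (median 0.50). The part of such cells in the result was not tested.

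In HSC libraries none of the 9 passed, beside 0.0% of 14390 genes (1259 of them, and 0 of the 9, at an unadjusted p under 0.05 in edgeR's quasi-likelihood test, and 0 of the 9 and 405 genes called by DESeq2). The labels overlapped for all 9, beside 39.8% of genes without overlap. The estimates ran from -1.95 for Marco (SE 1.64) to 0.91 for Spic (SE 1.35). In each label 1 library stood above its partner, as KO 20 had 654 CPM of Clec4f against 147 CPM in KO 8, and WT 32 had 431 CPM against 103 CPM in WT 40. The median of the 9 was -0.19, beside 0.02 for all genes.

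In hepatocyte libraries all 9 estimates were below 0 and none passed, beside 0.0% of 11548 genes (821 of them, and 5 of the 9, at an unadjusted p under 0.05 in edgeR's quasi-likelihood test, and 0 of the 9 and 31 genes called by DESeq2). Labels did not overlap for 5 of the 9 (Spic, Cd163, Clec4f, Cd5l and Timd4), beside 39.5% of all genes. The log2 fold change of Cd163 was -3.60 (SE 0.97, adjusted p = 0.700 in edgeR), from 73 and 31 reads in WT 29 and WT 33 and 7 and 1 reads in KO 25 and KO 41. Spic (-2.70) rested on 45 and 50 reads under the WT label and 9 and 5 under the KO label. Nr1h3, the most abundant of the 9 in hepatocytes, stood at -0.04 (SE 0.21), and the median of the 9 was -1.18 beside -0.02 for all genes. Marco, at -2.55, went to 0.04 without library WT 29. Some other transcripts foreign to hepatocytes lay mostly on the same side in these libraries. Below 0 were 16 of 19 further KC identity genes (median -0.66), 8 of 9 endothelial genes (median -0.90) and 8 of 10 stellate genes (median -0.35). Others did not, as 4 of 5 cholangiocyte genes (median 0.47) and 2 of 3 other macrophage and dendritic cell genes tested were above 0. Summed endothelial markers came to 172 and 154 CPM in WT 29 and WT 33 and 124 and 88.6 CPM in KO 25 and KO 41. Erythroid and platelet markers came to 166 and 270 CPM and to 32.8 and 27.7 CPM in the same order, although 3 of 5 tested were above 0, and all 4 neutrophil genes tested were above 0. The part of such cells in the result was not tested.

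The difference between the label effects was tested as an interaction. None of the 9 passed for KC against EC (background 2.07%), KC against HSC (background 0.593%) or KC against hepatocytes (background 0.0116%). These backgrounds depend on which libraries enter the fit. The 357 genes called for KC against EC became 1 without EC KO 46, 8 without EC WT 38, 51 without EC KO 6, 29 without KC WT 31, 178 without KC WT 39, 92 without KC KO 43 and 569 without KC KO 27. The 102 for KC against HSC became 8 without KC KO 43, 17 without KC WT 31, 356 without KC KO 27, 40 without HSC KO 8, 213 without HSC KO 20, 162 without HSC WT 32 and 21 without HSC WT 40. The 2 for KC against hepatocytes became 0 without any 1 of the hepatocyte libraries, 5, 1 and 3 without KC WT 31, WT 39 and KO 43, and 77 without KC KO 27. Without hepatocyte-enriched genes they were 7, 0 and 2. In edgeR's quasi-likelihood test 0, 0 and 1 of the 9 had an unadjusted p under 0.05 in these comparisons, and DESeq2 called 0 of the 9 in each. The one was Cd163 against hepatocytes, with a difference of 3.85 (SE 1.42, adjusted p = 0.537).

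**Figure D4:**
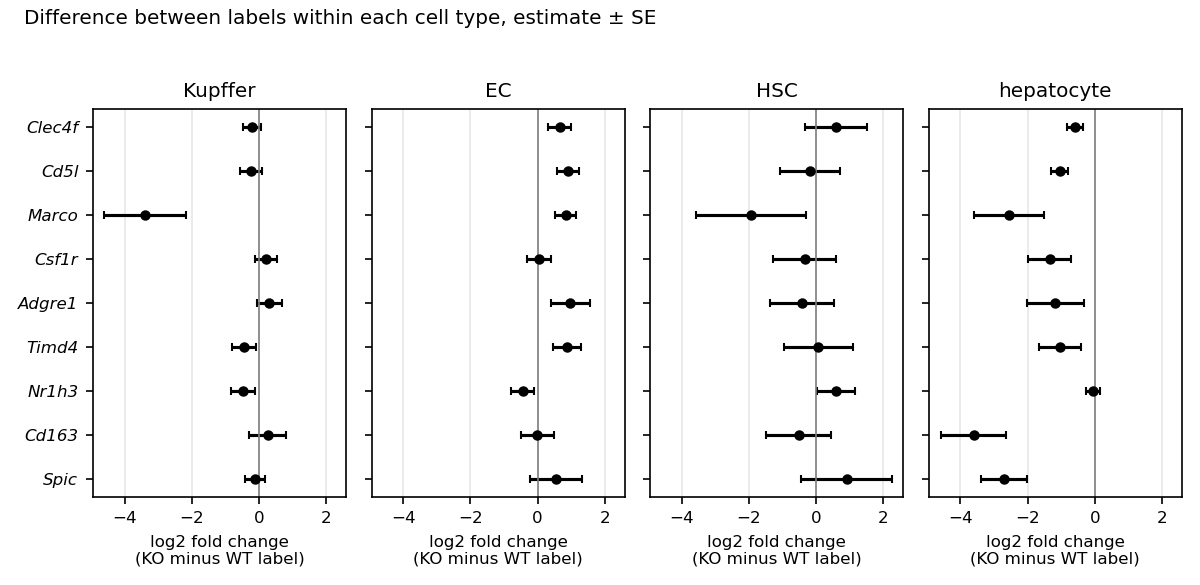
Log2 fold change of the 9 genes between the KO and the WT label (horizontal axis, KO minus WT) within each cell type, with a standard error derived from edgeR's F statistic as a bar, 2 libraries per label. The KC estimates other than that of Marco (-3.38) lie between -0.47 and 0.31, and the 9 hepatocyte estimates all lie below 0.

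The other genes of the KC programme were described with lists chosen beside the 9. Of 20 further identity genes, 18 passed as higher in KC than in ECs (14.5% of all genes did), 19 than in HSCs (20.6%) and 20 than in hepatocytes (29.3%), with median log2 fold changes of 5.52, 4.62 and 6.45. All 20 estimates were above 0 in each comparison, and those that missed the threshold were Mertk (0.71) and Cd38 (0.20) against ECs and Slc16a9 (0.60) against HSCs. The 20 were chosen as known KC genes, with earlier results of these data known, so these counts are a description. The 3 most abundant in KC were Lyz2 (10140 ± 4930 CPM, SD, n = 4), C1qb (7378 ± 833) and C1qc (5003 ± 701). Between labels in KC, 0 of the 20 passed edgeR's quasi-likelihood test, with 4 above and 16 below 0, a median of -0.24 and 0 at an unadjusted p under 0.05, and DESeq2 called 0 of them.

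Of 15 transcription factor genes that act with Nr1h3 and Spic in this lineage, 0 passed between labels in KC in edgeR (median log2 fold change -0.23, 5 above and 10 below 0, 3 lower and 1 higher at an unadjusted p under 0.05), whereas the calls of DESeq2 included Id1, lower under the KO label. The most abundant were Id3, a factor needed for KC development (2163 ± 786 CPM), the master regulator Spi1 that encodes PU.1 (720 ± 110), and Irf8 (548 ± 100). Id3 had 3198 and 2311 CPM under the WT label and 1745 and 1397 CPM under the KO label, groups that did not overlap, with a log2 fold change of -0.89 (SE 0.34, adjusted p = 0.933 in edgeR).

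Among 10 target genes of the liver X receptors, 0 passed between labels in KC in edgeR or DESeq2 (median 0.16, 7 above and 3 below 0, 0 at an unadjusted p under 0.05 in edgeR). Apoe (32680 ± 2697 CPM), the phospholipid transfer protein gene Pltp (1954 ± 617) and Ptgs1 (1185 ± 195) led the list. Pltp had 2813 and 1993 CPM under the WT label and 1494 and 1515 CPM under the KO label, with a log2 fold change of -0.75 (SE 0.34, adjusted p = 0.933 in edgeR). Hepatocyte libraries had 32950 ± 1818 CPM of Apoe, within the spread of KC libraries in CPM. edgeR's quasi-likelihood test scales libraries beyond their totals. In it all 10 genes of the list, Apoe included, passed between KC and hepatocytes (6 higher and 4 lower in KC), beside 9577 of 17214 genes.

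Of 16 scavenger and engulfment genes and 12 haem and iron genes, 0 passed in either list in edgeR, with medians of 0.02 and 0.05 and 1 gene in each at an unadjusted p under 0.05, and DESeq2 called 0 and 1. Axl (1414 ± 661 CPM), Itgb2 (1020 ± 59) and the mannose receptor gene Mrc1 (785 ± 161) led the first list, and Mrc1 had 1938 ± 310 CPM in EC libraries (log2 fold change of KC over EC -0.99, adjusted p = 0.0704 in edgeR). The ferritin chain genes Ftl1 (4907 ± 315) and Fth1 (4118 ± 547) and the exporter gene Slc40a1 (4302 ± 2067) led the second. The 1 gene of the haem and iron list that DESeq2 called was Vcam1, an adhesion gene named after its values were seen. It had 525 and 522 CPM under the WT label and 1917 and 1855 CPM under the KO label (log2 fold change 1.79, adjusted p = 0.933 in edgeR and 1.76e-05 in DESeq2).

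Genes for the signals known to maintain KC identity were mostly expressed in the neighbouring cells. The 2 ligands of Csf1r were most abundant in HSC libraries, where Csf1 had 356 ± 124 CPM (SD, n = 4) and Il34 337 ± 207, against 157 ± 16 and 1.32 ± 0.925 in EC and 16.5 ± 6.7 and 2.05 ± 0.879 in KC libraries. Csf1r itself had 5275 ± 1258 CPM in KC and 91.9 ± 29.3, 175 ± 131 and 29.4 ± 24 CPM in EC, HSC and hepatocyte libraries. Hepatocyte libraries were low in all of them, with 3.98 ± 2.85 CPM of Csf1 and 0 to 1.16 CPM of Il34. Between KC and HSC libraries the log2 fold changes, KC minus HSC, were -4.38 for Csf1 (adjusted p = 8.89e-06 in edgeR) and 4.95 for Csf1r (adjusted p = 0.000124).

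The Notch ligand genes Dll4 (523 ± 111 CPM) and Dll1 (61.4 ± 15.2) were most abundant in ECs, and Jag1 (26.9 ± 5.58) in HSCs. Of their receptors, Notch2 was highest in KC (65.2 ± 8.18 against 10.3 ± 4.48 in EC, log2 fold change 3.09, adjusted p = 1.57e-06 in edgeR) and Notch1 in ECs (283 ± 48 against 39.3 ± 18.6 in KC). Among ligands of the bone morphogenetic protein branch, Gdf2 (2915 ± 373 CPM) and Bmp10 (55.4 ± 11.9) were most abundant in HSCs and Bmp2 (1233 ± 219) in ECs. Acvrl1, a receptor gene for the products of Gdf2 and Bmp10, had 222 ± 26.6 CPM in KC, 103 ± 20.4 in EC and 11.1 ± 6.1 in HSC libraries. The receptor gene Bmpr2 and the co-receptor gene Eng, by contrast, were higher in ECs (130 ± 17.5 and 6792 ± 1811) than in KC (15.1 ± 4.09 and 260 ± 112). Of the transforming growth factor genes, Tgfb1 had 17.1 ± 3 CPM in KC, 22.1 ± 6.17 in EC, 5.2 ± 2.15 in HSC and 0.0322 ± 0.0645 in hepatocyte libraries. Tgfb2 had 4.59 ± 2.81 CPM in KC and 16 ± 2.99 in HSCs, and the receptor genes Tgfbr1 and Tgfbr2 had 29.5 ± 9.39 and 198 ± 71.7 in KC. None of the 10 ligand genes and 8 receptor genes passed between labels in KC in edgeR's quasi-likelihood test (medians 0.56 and 0.18, 0 in each at an unadjusted p under 0.05), and DESeq2 called 0 in each.

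**Figure D5:**
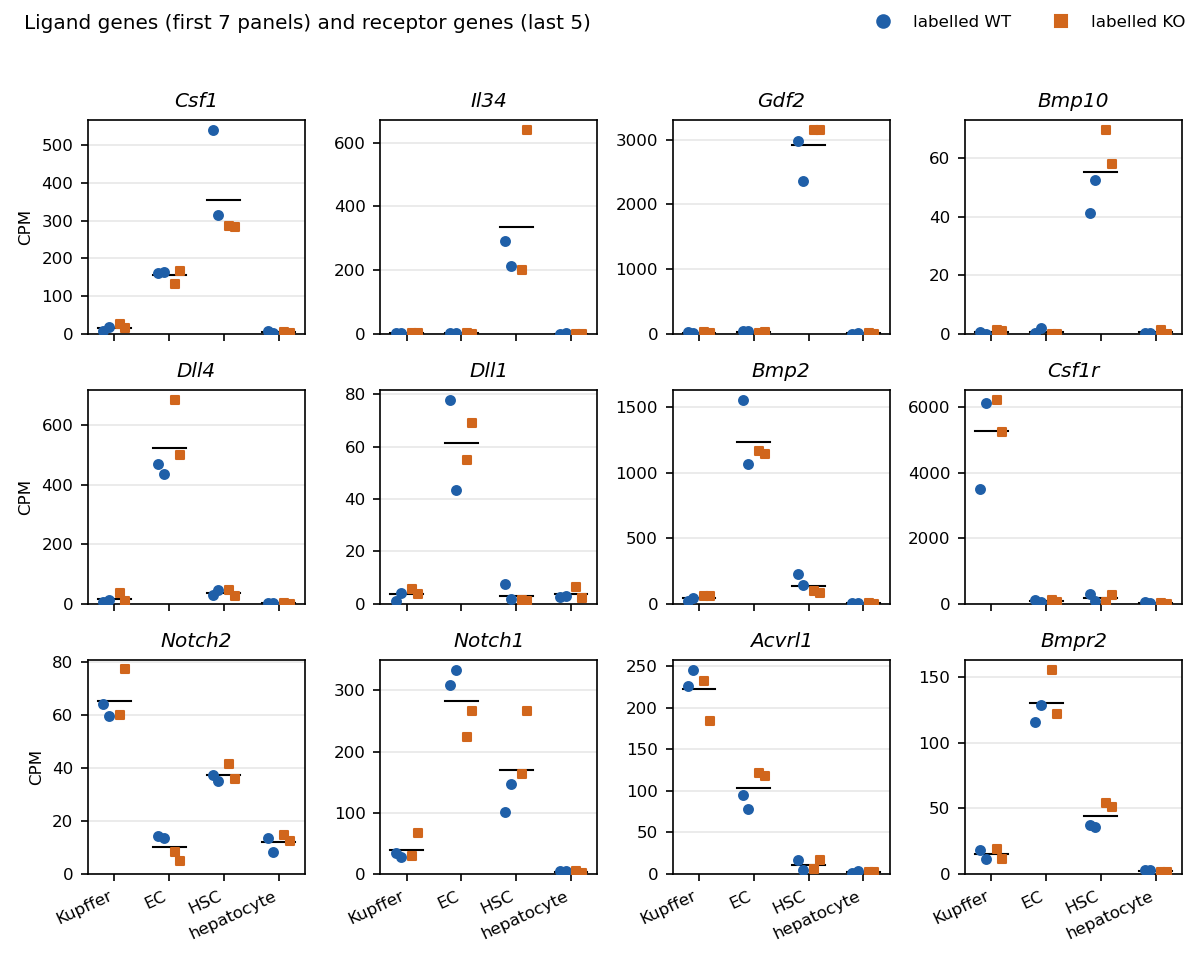
CPM (vertical axes from 0, each with its own scale) of 7 ligand genes and 5 receptor genes by cell type, 1 point per library, blue circles for the WT label and orange squares for the KO label, with a bar at the mean of 4 libraries. Csf1, Il34, Gdf2 and Bmp10 are highest in HSCs, Dll4, Dll1 and Bmp2 in ECs, and Csf1r, Notch2 and Acvrl1 in KCs.

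Transcripts of other cell types in the KC libraries were summed over marker lists. Hepatocyte transcripts (12 of 12 genes detected in every library) came to 6303 and 9396 CPM under the WT label and 10560 and 12620 CPM under the KO label. Endothelial transcripts (10 genes) came to 692 and 1060 CPM and to 1521 and 1099 CPM, and stellate transcripts (10 genes) to 778 and 600 CPM and to 1153 and 560 CPM. The leading genes were Alb, Apoa1 and Fga of the hepatocyte list (4630, 1532 and 925 CPM on average), Stab2, Clec4g and Ehd3 of the endothelial list (334, 204 and 176 CPM), and Ecm1, Dcn and Colec11 of the stellate list (462, 210 and 32.7 CPM). These are small beside the levels of the same lists in their own cell types, where the hepatocyte sum was at least 106300 CPM, the endothelial sum at least 21910 CPM and the stellate sum at least 76980 CPM. Of the blood cell lists, lymphocyte markers (7 of 8 genes above 0 in every KC library, led by Cd79b, Nkg7 and Cd79a) stayed between 58.8 and 71 CPM. Neutrophil markers (5 of 8 genes, led by Csf3r, S100a8 and Ngp) were highest in KO 27, at 336 CPM against 87.9 to 96.4 in the others. Monocyte markers (8 of 8, led by Fn1, Plac8 and Ccr2) were highest in WT 39, at 612 CPM against 232 to 469. Fn1 alone had 535 CPM in WT 39, and it also had 229 to 429 CPM in hepatocyte and 521 to 643 CPM in HSC libraries. Of the other leading genes, Plac8 was highest in WT 31 (147 CPM) and Ccr2 in KO 27 (30.8 CPM). The sum therefore does not measure monocytes by itself. Other macrophage and dendritic cell markers (6 of 9, led by Cd207, Cx3cr1 and Ccr7) were highest in KO 27, at 998 CPM against 580 to 814. Cd207 alone had 490 to 815 CPM in the KC libraries and 3.44 to 46.1 CPM in all others. That sum thus mostly follows 1 gene that was itself highest in KC, and does not measure other macrophages or dendritic cells. Erythroid and platelet markers (6 of 8, led by Hbb-bs, Hba-a1 and Pf4) ran from 241 to 783 CPM and cholangiocyte markers (3 of 5, led by Spp1, Sox9 and Krt19) from 133 to 258 CPM. In these lists 0 genes passed between labels in edgeR's quasi-likelihood test or in DESeq2. At an unadjusted p under 0.05 in edgeR, 2 neutrophil, 2 endothelial, 1 stellate, 1 hepatocyte and 1 erythroid or platelet gene were higher under the KO label. The median log2 fold changes were 0.59 for the hepatocyte, 0.76 for the endothelial, 0.61 for the stellate, 2.07 for the neutrophil, 0.71 for the monocyte, 0.43 for the other macrophage, -0.17 for the lymphocyte, -0.22 for the erythroid and platelet and 1.11 for the cholangiocyte list. The part of such cells in any result was not tested.

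Cdh5, whose promoter drives the Cre, had 147, 172, 149 and 160 CPM in KC libraries WT 31, WT 39, KO 27 and KO 43. EC libraries had 165 to 234 CPM and HSC libraries 1.73 to 12.4 CPM. The log2 fold change of KC over EC was 0.07 (SE 0.48, adjusted p = 0.96 by edgeR's quasi-likelihood test), whereas Stab2 had 334 ± 79.1 CPM in KC and 4003 ± 264 in EC libraries. Zeb2 itself had 286 and 314 CPM in KC under the WT label and 297 and 235 CPM under the KO label (log2 fold change -0.23, SE 0.28, adjusted p = 0.961).

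A list of 10 early response genes, chosen as markers of cell dissociation, includes Fos, Jun and Dusp1. It summed to 20730 and 31200 CPM in KC libraries of the WT label and 9841 and 5690 CPM in those of the KO label. All 10 estimates were below 0 (median log2 fold change -1.52), 7 had an unadjusted p under 0.05 and 0 passed in edgeR, whereas DESeq2 called 5 (Dusp1, Egr1, Fos, Ier2 and Jun), all lower under the KO label. Dusp1 had 6702 and 8702 CPM against 2863 and 2261 CPM, Fos 3896 and 7899 CPM against 1119 and 355 CPM, and Jun 2455 and 4296 CPM against 1205 and 409 CPM. The part of this early response in the values of the 9 genes, none of which passed between labels, was not tested. Whether it arose in the mice or during cell isolation was not tested either.

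The genes most like the mean of the 9 over the 16 libraries were Cfp, the complement factor properdin (Pearson r = 0.9921), the purine receptor gene P2ry13 (0.992), C1qa (0.9911), Ms4a8a (0.991), the inhibitory lectin gene Siglece (0.9903) and the formyl peptide receptor gene Fpr1 (0.9895). These values describe 16 libraries of 4 cell types, so they mainly follow the step between KC and the rest, and each pair shares its libraries. Taken one by one, Timd4 was most like Cd5l (0.9955), Cd5l like C1qa (0.9967), Cd163 like Csf1r (0.9839), and Csf1r like Cybb (0.992). Adgre1 was most like C3ar1 (0.9886), Spic like Ms4a8a (0.9872) and Nr1h3 like the peroxiredoxin gene Prdx5 (0.9805). Prdx5 shared with Nr1h3 its level in hepatocytes, 218 ± 13.5 CPM (SD, n = 4) beside 539 ± 157 in KC and 95.3 ± 13.9 in EC libraries.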

How the data were processed

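The authors deposited 1 table of raw read counts per library, listing Ensembl identifiers and symbols, without normalization. The submitters' processing notes name Trimmomatic 0.32, HISAT2 2.1.0, HTSeq 0.9.1, edgeR and the build GRCm38, and the strand setting is not given in the sources used here. The 5 summary lines of each table were left out of totals. Coordinates and exon lengths came from GENCODE M21, in which 98.9% of the Ensembl identifiers were found. Which library kit was used is uncertain, as GEO's labels give Smart-seq2 in one place and a stranded TruSeq kit in another.

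CPM were computed from the deposited counts and gene totals. All genes were tested with edgeR 4.0.16 in R 4.3.3 (filterByExpr, TMM, 1 mean per group, quasi-likelihood test, Benjamini-Hochberg adjusted p under 0.05), within each cell type for the labels and over all 16 libraries for cell types and interactions. No regrouping of 2 libraries against 2 can give a p under 0.333, so none was used. Each SE is the absolute log2 fold change divided by the square root of edgeR's F statistic. The scripts were tested on simulated data with known changes. Likeness is Pearson's r of log2 CPM with a prior count of 2, over genes of at least 10 CPM in KC. Named were the 9 genes, Zeb2, Cdh5, all ligand and receptor genes, the 3 most abundant KC genes of each other list, and the genes most like the 9, with Id1, Vcam1, Egr1, Ier2 and the exceptions in counts added after their values were seen. One item of the transcription factor list is not reported here. Symbols held by more than 1 identifier were settled with GENCODE. The members and lists were chosen with earlier results of these data known. Alternatives were DESeq2 1.42.0, RLE, library totals, no filter, all libraries in one fit, WT-labelled libraries only, dropping 857 genes enriched in hepatocytes, and dropping single libraries. Plots used Python 3.11.15 and matplotlib 3.10.9.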

Additional observations from a re-analysis of the deposited data

How the results depend on the processing

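All 9 genes stayed higher in KC than in the other cell types, in direction, under every alternative, and the call was lost only for Marco against HSCs, in the cases given above. With libraries 29, 31 and 32 left out, a setting added after seeing the data, 9 of 9 were higher in KC in each comparison and 0 of the 9 label effects differed between cell types. Without a filter on low counts, the genes called between labels became 1 in KC (Marco), 1 in EC (Cd5l), 1 in HSC (Marco) and 4 in hepatocytes (Cd163, Cd5l, Csf1r and Marco), and the label effects that differed became 1 for KC against EC (Marco) and 2 for KC against hepatocytes (Spic and Cd163); the cause was not tested. In EC the log2 fold change of Cd163 became 0.0027 under that setting. With 2 libraries per label, leaving out 1 left a lone library that is assumed to vary like the rest. This moved the number called in EC between 0 and 2, and the log2 fold changes between labels crossed 0 as follows. In KC, Spic ran from -0.33 to 0.060, Adgre1 from -0.045 to 0.78, Cd163 from -0.34 to 1.31, Csf1r from -0.044 to 0.54 and Cd5l from -0.57 to 0.019. In EC, Cd163 ran from -0.52 to 0.39, Csf1r from -0.35 to 0.54 and Spic from -0.055 to 0.98. In HSCs, Adgre1 ran from -2.06 to 1.03, Cd163 from -2.21 to 0.91, Cd5l from -1.57 to 1.30, Csf1r from -2.06 to 1.01, Nr1h3 from -0.39 to 1.17, Spic from -2.75 to 2.14, Clec4f from -0.97 to 1.98, Timd4 from -1.51 to 1.93 and Marco from -4.38 to 2.26. In hepatocytes, Adgre1 ran from -2.66 to 0.019, Marco from -3.42 to 0.037 and Nr1h3 from -0.18 to 0.084. Counts over all genes moved more: between labels, DESeq2 called 78 (KC), 992 (EC), 405 (HSC) and 31 (hepatocytes), no filter gave 133, 1205, 618 and 185, and leaving out hepatocyte-enriched genes gave 0 in EC against 305. The fit over all libraries gave 178 in HSC. Leaving out 1 library gave 0 to 12 in KC, 3 to 688 in EC and 0 to 55 in hepatocytes. RLE scaling moved the median of all genes to -0.02 against EC and 0.36 against hepatocytes. For the difference in label effects from EC, HSC and hepatocytes, DESeq2 called 1075, 770 and 138 genes and no filter gave 1302, 1123 and 374, against 357, 102 and 2, and without libraries 29, 31 and 32 it was 0 in each. Leaving out 1 library moved these counts between 1 and 569, 8 and 356, and 0 and 77. No paired analysis was possible because the groups share no replicate numbers. Depth limits Cd163 and Spic in hepatocytes, with 1 to 73 reads per library.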
